A study of Mus musculus with 18 samples.

Results

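A total of 4749 genomic regions were listed as accessible in 1 group of mouse muscle cells and in none of the 3 others of the study: myocytes deposited as MyoD-null, after 24 h of myogenic differentiation. They were chosen by the presence or absence of peaks. The ATAC-seq peaks of 4 groups on chromosomes 1 to 19 were merged where they shared at least 1 bp, and a merged region was kept if it held a peak of these myocytes and no peak of the other lists. Merging gave 139354 regions, so the selected ones made up 3.41% of all regions and 5.49% of the 86575 autosomal peaks of their own list. Each selected region held exactly 1 peak, and its values are those of that peak.

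ATAC-seq maps open chromatin with a transposase that cuts exposed DNA and inserts sequencing adapters there. The groups were wild-type myoblasts, myoblasts with a MyoD knockout, wild-type myocytes and myocytes with a MyoD knockout, with 3 samples in each, all from skeletal muscle. Both myocyte groups had been differentiated for 24 h, and no treatment is given for the myoblasts. The labels give neither the age of the mice nor the way the cells were isolated, and they do not say whether the samples of a group came from separate animals. One peak list was deposited per group, called on merged reads, so no value below has an error between replicates and no p-value could be computed. A further 6 RNA-seq samples of the C2C12 line were not analysed here.

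The genotype of the list that defines these regions is recorded in opposite ways. It was deposited as MyoD-null myocytes, but its peak names read WT-DM, while MKO-DM stands in the peak names of the second myocyte list, deposited as wild type. The names of both myoblast lists match their labels. Every region described here may therefore belong to either genotype of myocyte. Below, "the defining myocytes" are the cells of the list that defines the regions, and "the other myocytes" those of the second myocyte list. A further prefix, whose meaning no label gives, stands in the peak names of these lists and not in those of the myoblasts, so whatever it marks and differentiation cannot be told apart.

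MyoD is a basic helix-loop-helix transcription factor that binds short sequences called E-boxes, recruits chromatin-modifying enzymes and switches on the skeletal muscle programme. When myoblasts leave the cell cycle, MyoD and its relatives, together with MEF2 factors, activate enhancers far from gene starts as well as promoters. CTCF, the architectural protein named in the title of the study, organises loops that bring such enhancers near their target genes. The peaks carry mm9 coordinates and the gene tables at hand belong to another build, so regions are named by position, and genes, sequences and motifs were not assigned.

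The group at issue was small beside its counterpart. Peaks found in no other list made up 20.5% of the myocyte list deposited as wild type (22506 of 109753), 5.43% of the wild-type myoblast list (5236 of 96420) and 7.68% of the MyoD-null myoblast list (7690 of 100192). The list of the defining myocytes was the shortest of the 4, and its share of 5.49% (95% Wilson interval 5.34 to 5.64) was close to that of wild-type myoblasts. With every list reduced to its 86575 peaks of lowest p-value the order changed: the defining myocytes then had 8120 peaks of their own, the other myocytes 13815, wild-type myoblasts 4979 and MyoD-null myoblasts 5524. All intervals given here cover counting error only. Among its peaks, 13.0% had no peak of the other myocytes in the same merged region, 14.9% none of wild-type myoblasts and 15.5% none of MyoD-null myoblasts. Passing over the list of the other myocytes would enlarge the set to 9815 peaks, against 5965 without the wild-type and 5911 without the MyoD-null myoblast list. On its own, the other myocyte list thus removed more peaks than either myoblast list. It is also the longest list. A further 4176 peaks were shared with both myoblast lists and not with the other myocytes, and these stay out whichever myoblast list is passed over.

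The regions were weak and narrow beside the rest of their list. Fold enrichment is the authors' ratio of reads over the summit to the local background, and it describes peaks within a list. Its median was 3.20 in the selected regions (quartiles 2.85 and 3.68, range 1.502 to 10.4). All peaks of the same list had a median of 4.41, and those in regions common to all 4 lists reached 5.0. The median width was 273 bp, with quartiles of 228 and 339 bp, against 482 bp in the whole list and 571 bp for peaks in common regions. Medians were 2.91 and 246 bp in regions found only in wild-type myoblasts, and 2.93 and 245 bp in those only in MyoD-null myoblasts. Regions found only in the other myocytes had medians of 3.77 and 334 bp. The selected regions thus lay between the myoblast classes and the other myocytes, with folds not on a common scale. Together the selected regions covered 1.42 Mb, of 50.9 Mb covered by all autosomal peaks of the list. The widest measured 1052 bp, and only 3 of the 11006 peaks of 1000 bp or more were found in no other list. Summits were placed centrally, with 85.5% of them between 25% and 75% of the length of their peak against 89.6% in the whole list.

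Peaks of these myocytes that were shared with only 1 other list were of a similar size to the selected ones. Median folds were 3.37 for the 4740 peaks shared with the other myocytes alone, 3.42 for the 1189 shared with wild-type myoblasts alone and 3.27 for the 1143 shared with MyoD-null myoblasts alone. Their median widths were 305, 300 and 289 bp. Peaks found in 3 lists had medians from 3.41 to 3.58. The selected regions thus lay just below the peaks of 2 or 3 lists, and all of these classes well below the common regions. A peak had to be listed once to enter any of these classes, so presence and strength are not independent measures.

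The share of peaks found in no other list fell steeply with strength. The list was divided by fold enrichment into 10 classes of equal size. In the weakest, 1452 of 8658 peaks or 16.8% (15.998 to 17.57) were selected regions. In class 5 the share was 3.81% (3.43 to 4.24), and the strongest class held 1 of 8657 peaks. A fold of at least 5 was reached by 117 selected regions or 2.46%, while 39.6% of all peaks of the list reached it.

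**Figure D1:**
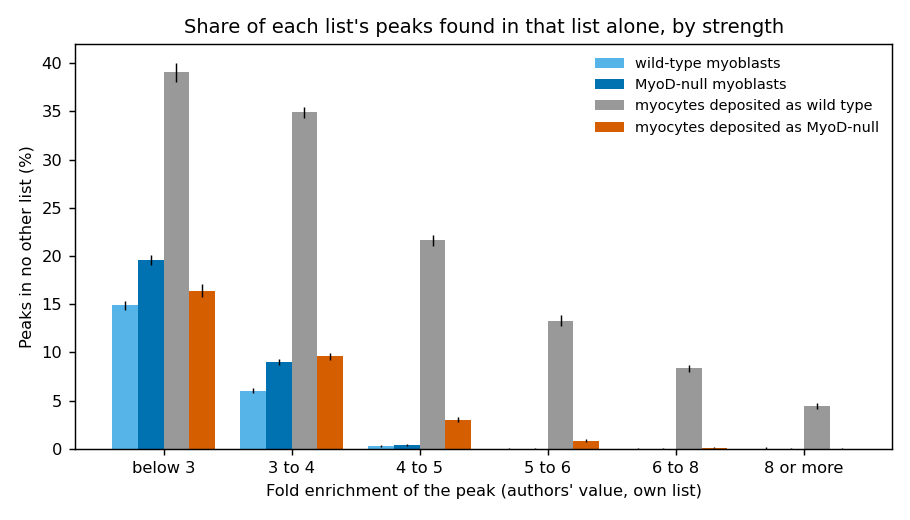
Percentage of the peaks of each list that were found in no other list (vertical axis), by the authors' fold enrichment of the peak in its own list (horizontal axis), with 95% Wilson intervals as bars. In the orange list, from the defining myocytes (deposited as MyoD-null), the share falls from 16.4% below a fold of 3 to 0.117% at folds of 6 to 8, and the grey list of the other myocytes stays above it throughout.

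The plot of shares by strength sets this list beside the others. At folds of 4 to 5, 508 of 17017 peaks or 2.99% (2.74 to 3.25) were found only in the defining myocytes. The same bin gave 0.300% in wild-type myoblasts, 0.397% in MyoD-null myoblasts, whereas the other myocytes had 21.6%. At folds of 5 or more the myoblast lists had 0 and 1 such peaks, these myocytes 117 and the other myocytes 4471. Both myocyte lists therefore held strong peaks of their own where the myoblast lists had almost none. Folds also ran higher in myocytes in general: at 64013 regions common to all lists, the median of the strongest peak per region was 5.04 in the defining myocytes, 5.80 in the other myocytes, 4.37 in wild-type myoblasts and 4.40 in MyoD-null ones. The bins are therefore not equivalent between lists.

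Read numbers at the summits were recovered from the deposited values, since fold and p-value together fix the number of reads over a summit and its local background. All 4749 regions had a solution that gave the deposited −log10 p to within 0.01. The median summit was covered by 28 reads (quartiles 24 and 36, range 17 to 107). In a regular sample of 2046 peaks of the same list that were also in another list, the median was 47 reads. The local background of the selected regions had a median of 6.92 reads, and at 1377 of them, or 29.0%, it exceeded 1.5 times the genome-wide 6.34. In the sample of shared peaks 44.6% exceeded that limit. Selected regions were thus covered by fewer reads than shared peaks and lay less often over a raised background. Regions found only in wild-type myoblasts, MyoD-null myoblasts and the other myocytes had similar median reads, at 28, 30 and 30. Their local background exceeded 1.5 times that of their own list in 10.1%, 13.7% and 32.5% of cases. Beside the myoblast classes, the selected regions therefore lay more often over a raised background.

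The weakest region by q-value lay on chromosome 16 from 49724454 to 49724731, with 17 reads over a background of 6.40, a fold of 2.43 and a −log10 q of 2.19. The lowest fold, 1.502, belonged to a region on chromosome 11 from 3098119 to 3098376, where 92 reads stood over a background of 60.9. A low fold here went with a high local background and not with few reads. The nearest peak of another list was 563 bp away.

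Each list has a lower limit, which bears on what an absence from it can mean. At the genome-wide background, the fewest reads with which a summit met the lowest deposited p-value were 20 in wild-type myoblasts, 21 in MyoD-null myoblasts, 15 in the other myocytes and 17 in the list of the selected regions. The corresponding folds were 2.29, 2.31, 2.55 and 2.45. Of the 4749 regions, 4518 had a fold at or above the first of these, 4502 at or above the second and 4199 at or above the third. For the fourth, that of their own list, 4338 were at or above it and 411 below, although all were listed there. A fold below such a limit thus did not preclude listing. These counts are a description: the regions were selected for being listed in the defining myocytes, folds are not on a common scale between lists, and the scatter of read numbers is left out. Whether a region missing from another list was closed there or only below its limit cannot be told apart.

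The strongest selected region stood apart from the rest. It lay on chromosome 9 from 104884307 to 104884918 (612 bp), with 75 reads over the genome-wide background, a fold of 10.4 and a −log10 q of 49.999. No other selected region reached a fold of 8. The nearest peaks of the other 3 lists, and the nearest peak of its own list that was shared with another, were all about 70 kb away towards higher coordinates, in a region common to the 4 lists, where the other myocytes had a fold of 11.4. A second selected region followed at 6706 bp, from 104891625 to 104891899, with a fold of 4.23 and 30 reads. The strongest region was therefore isolated from listed chromatin except for a weaker region of its own class.

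The next 3 in strength had folds between 7.36 and 7.50. The second, on chromosome 1 from 176579334 to 176579883, had 54 reads and lay 4439 bp from a common region. The third, on chromosome 15 from 65251003 to 65251851, was the widest of the 12 strongest at 849 bp and had 60 reads over a background of 7.26. The nearest peak of the other myocytes was 31922 bp away, and the nearest in MyoD-null myoblasts 165250 bp. As on chromosome 9, a weaker selected region stood close by, at 1646 bp, with a fold of 3.90. Rank 4, on chromosome 13 from 30154102 to 30154610, had 53 reads, and it too had a selected neighbour, at 1325 bp with a fold of 3.54.

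Ranks 5 to 12 had folds from 6.41 to 6.95 and 46 to 66 reads. On chromosome 6 from 17337960 to 17338470 there were 50 reads, and the nearest peak of every other list was about 7.5 kb away. The sixth to eighth all had 49 reads and a fold of 6.81. Of these, the region on chromosome 17 from 48321996 to 48322521 was 7317 bp from a MyoD-null myoblast peak but 48183 bp from a peak of the other myocytes. The region on chromosome 3 from 39549500 to 39550010 was the most isolated of the 12, at 163788 bp or more from any other list and 380678 bp from a region common to all lists. The eighth, on chromosome 6 from 128913058 to 128913478, was 6156 bp from a common region.

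The ninth region, on chromosome 13 from 5725677 to 5726162, was the closest of the 12 to other listed chromatin. It had 66 reads over a background of 8.96 and a fold of 6.73. At 1614 bp lay a common region, where the other myocytes had a fold of 13.2, wild-type myoblasts 8.39 and MyoD-null myoblasts 8.59. The tenth, on chromosome 9 from 79480773 to 79481430, had 48 reads and a fold of 6.68, and a selected neighbour with a fold of 3.95 lay 579 bp from it. The last in rank were on chromosome 14 from 89970652 to 89971311 (47 reads, 38179 bp from a common region) and on chromosome 4 from 108560134 to 108560539 (46 reads, 7647 bp from a common region).

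**Figure D2:**
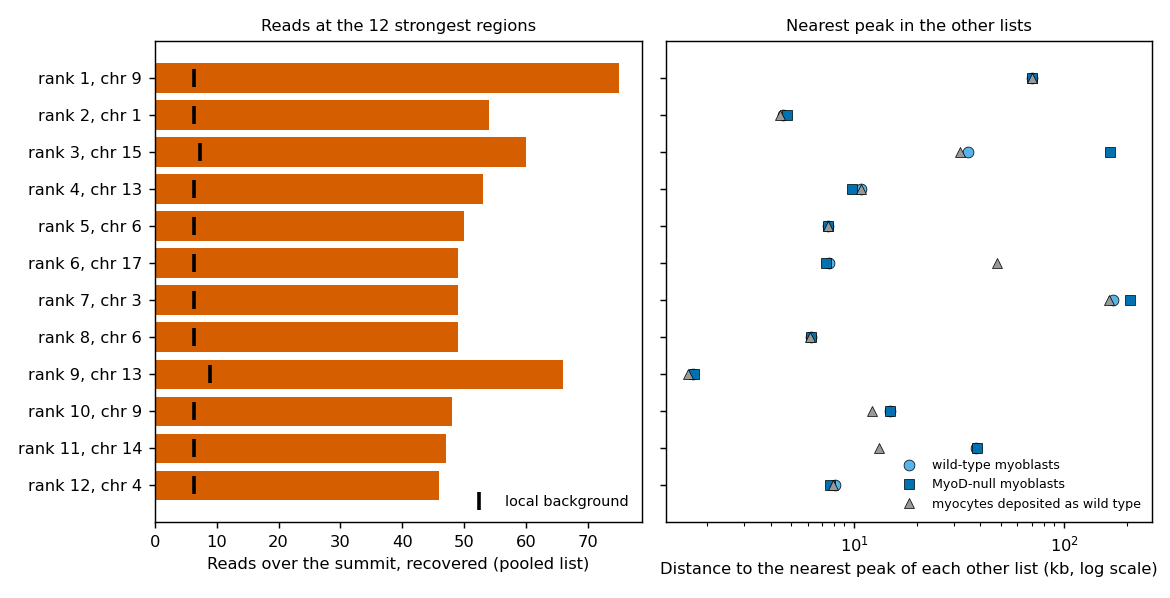
The 12 selected regions with the highest fold enrichment, by rank and chromosome. Left, reads over the summit (bars) and the local background (black marks) in the pooled list; right, distance in kb on a log axis from each region to the nearest peak of the other 3 lists. Reads run from 46 to 75, and no region has a peak of another list within 1 kb.

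As a set, the 12 lay on 9 chromosomes, were 406 to 849 bp wide and lay at least 1614 bp from any peak of another list. For 10 of them the local background was within 1% of the genome-wide value. A peak of another list was within 10 kb of 7 of them. In the plot of the strongest regions, the nearest peaks of the 3 other lists lie apart at ranks 3, 4, 6, 7, 10 and 11. At the other ranks they lie at similar distances. At rank 4 the nearest peak of MyoD-null myoblasts was at 9780 bp, against 10818 bp for wild-type myoblasts and 10835 bp for the other myocytes. Folds of these 12 were highest by choice, so their strength is a description.

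Most selected regions lay near chromatin listed in other groups. The nearest peak of any other list was at a median of 2409 bp. It was within 500 bp for 13.4% of regions, within 1 kb for 26.5% (25.3 to 27.8), within 10 kb for 86.1% (85.1 to 87.1) and beyond 50 kb for 99 regions. By list, 22.4% (21.2 to 23.6) had a peak of the other myocytes within 1 kb, 18.8% (17.7 to 19.9) one of wild-type myoblasts and 18.8% (17.7 to 19.96) one of MyoD-null myoblasts. The list of the other myocytes is the longest, which raises its share. Regions found only in wild-type myoblasts, MyoD-null myoblasts and the other myocytes also mostly lay near another list. Within 1 kb of one were 19.5%, 18.9% and 16.7% of them, and within 10 kb 76.9%, 77.1% and 78.4%. Each class is set against different lists here.

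Regions close to other lists differed from distant ones. The 1258 regions within 1 kb of another list's peak had a median fold of 2.99 and a median background of 9.19 reads, and 882 of them, or 70.1%, also had a peak of their own list within 1 kb that was shared with another group. The 2833 regions at 1 to 10 kb had a median fold of 3.22 over a background of 7.0. At 10 to 50 kb the 559 regions had a median fold of 3.54, and beyond 50 kb it was 3.68, both over the genome-wide background of 6.34. Folds of 5 or more were held by 1.51% of the nearest and 6.06% of the most distant regions (6 of 99). Median reads over the summit were 32, 28, 25 and 26 from the nearest to the most distant class. Beside the nearest class, the higher median folds beyond 10 kb thus stood over a lower background, which is the denominator of the fold. They did not stand over more reads at the median. Between the classes at 10 to 50 kb and beyond 50 kb the background was equal, and the higher median fold went with 26 against 25 reads. The median width was 271 bp in the nearest and 296 bp in the most distant class.

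Position was next measured against a reference that is the same for every list, the 64013 regions common to all 4. The selected regions lay at a median of 5283 bp from one, with 68.6% (67.3 to 69.9) within 10 kb. Regions found only in the other myocytes were at 6941 bp, with 61.4% (60.8 to 62.0) within 10 kb. Those found only in wild-type myoblasts were at 9683 bp with 51.0% (49.6 to 52.3), and those only in MyoD-null myoblasts at 9148 bp with 53.2% (52.1 to 54.3). Of the 4 single-list classes the selected one was the closest to common chromatin. Peaks of the same list that were shared with 1 or 2 others were similar, with a median of 5936 bp and 66.5% within 10 kb.

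**Figure D3:**
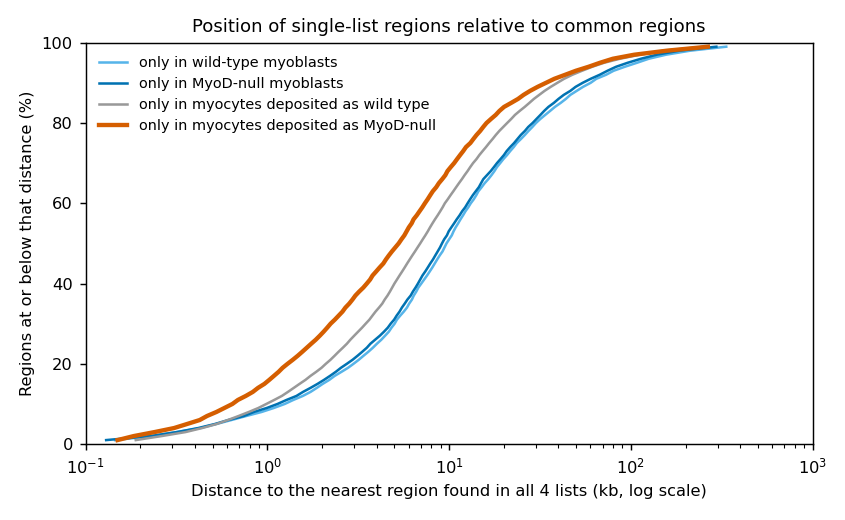
Cumulative percentage of regions (vertical axis) by distance in kb, on a log axis, to the nearest region found in all 4 lists, for regions found in 1 list alone. The orange curve, from the defining myocytes, lies to the left of the other 3 between about 1 and 10 kb, with 68.6% of regions within 10 kb.

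Distance also differed with strength, and the order of the myocyte classes changed within bins of fold. Below a fold of 3, 84.4% (82.6 to 86.0) of the selected regions lay within 10 kb of a common region, against 88.7% (87.6 to 89.6) of those only in the other myocytes. At folds of 3 to 4 it was 62.5% (60.5 to 64.4) against 59.6% (58.6 to 60.5). At 4 to 5 it was 47.0% (42.7 to 51.4) against 55.6% (54.1 to 57.0), and at 5 or more 41.9% (33.3 to 50.9) against 47.1% (45.6 to 48.5). The closer position of the selected regions as a whole therefore did not hold against the other myocytes in 3 of the 4 bins. Against both myoblast classes it held in the bins below 4, with 57.3% and 61.6% below a fold of 3 and 41.5% and 41.9% at 3 to 4 for wild-type and MyoD-null myoblasts. The order was the same at 4 to 5, on few myoblast regions. There 14 of 55 wild-type (25.5%, 15.8 to 38.3) and 24 of 72 MyoD-null regions (33.3%, 23.5 to 44.8) lay within 10 kb. The MyoD-null interval overlapped that of the selected regions. These bins were chosen after the distances were seen.

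The nearest listed region of another class was one common to all 4 lists in 2486 cases or 52.3% (50.9 to 53.8), where such regions make up 47.6% of all regions outside the class. It was one found only in the other myocytes in 650 cases or 13.7% (12.7 to 14.7), against 16.7% of all. Any region holding a peak of the same list was the nearest in 67.3% (66.0 to 68.6), against 59.6% of all. For regions found only in the other myocytes, the matching share with a peak of their own list was 77.0% against 73.7%. Regions holding a peak of the other lists were also nearest more often than their share: 82.7% against 80.7% for the other myocytes, 72.8% against 69.2% for wild-type myoblasts and 73.0% against 71.1% for MyoD-null myoblasts. An excess was thus seen for all 4 lists, but regions common to all lists count towards each of these shares. Every class of region without a peak of the defining myocytes was nearest less often than its share. Regions found only in wild-type myoblasts had 3.28% of cases against 3.89% of all. Those found only in MyoD-null myoblasts had 4.21% against 5.71%. Every class of region that held a peak of the defining myocytes was nearest more often than its share. Regions shared by both myocyte lists and no myoblast list had 4.46% (3.91 to 5.09) of cases against 3.50% of all. Those shared with wild-type myoblasts alone had 1.26% (0.98 to 1.62) against 0.88%. Those shared with MyoD-null myoblasts alone had 1.05% (0.80 to 1.39) against 0.85%, and this interval held the share. So did the interval of regions in both myocyte lists and the MyoD-null myoblast list, at 1.79% (1.45 to 2.21) against 1.69%. For regions found only in the other myocytes, every class with a peak of their own list was likewise nearest more often than its share.

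Folds at common regions near the selected ones were close to those of common regions as a whole. At 5591 common regions within 10 kb of a selected region, the median fold was 4.81 in the defining myocytes and 5.46 in the other myocytes. The median log2 ratio of the first to the second was -0.14, against -0.15 over all 64013 common regions, and 32.4% of these regions had the higher fold in the first list, against 30.3% of all. Near regions found only in the other myocytes the median log2 ratio was -0.10, with 36.9% higher in the first list. Neither class of single-list regions thus lay beside common regions with a clear lean towards its own list. Within 1 kb of the selected regions the median log2 ratio was -0.13, with 32.9% higher in the first list. Within 1 kb of regions found only in the other myocytes it was -0.06 with 42.3%, a lean away from their own list. Within 10 kb of the selected regions, the log2 ratios to wild-type and MyoD-null myoblasts were 0.18 and 0.17. Over all common regions they were 0.18 and 0.17 as well.

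Selected regions were spread over every autosome in rough proportion to the peaks of the list. Their share of peaks per chromosome ran from 4.65% (3.92 to 5.52) on chromosome 19 to 6.49% (5.83 to 7.22) on chromosome 6. The interval for chromosome 6, with 312 regions among 4807 peaks, lay above the overall 5.49%, and that for chromosome 1, with 281 among 5927 (4.74%, 4.23 to 5.31), lay below it. The other 17 intervals held the overall value. The intervals are not adjusted for the 19 chromosomes compared. In absolute number chromosome 2 led, with 373 regions or 7.85% of the set. Of the regions with a fold of 5 or more, chromosome 9 held 12 and chromosome 14 held 10, while chromosome 17 held 1.

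**Figure D4:**
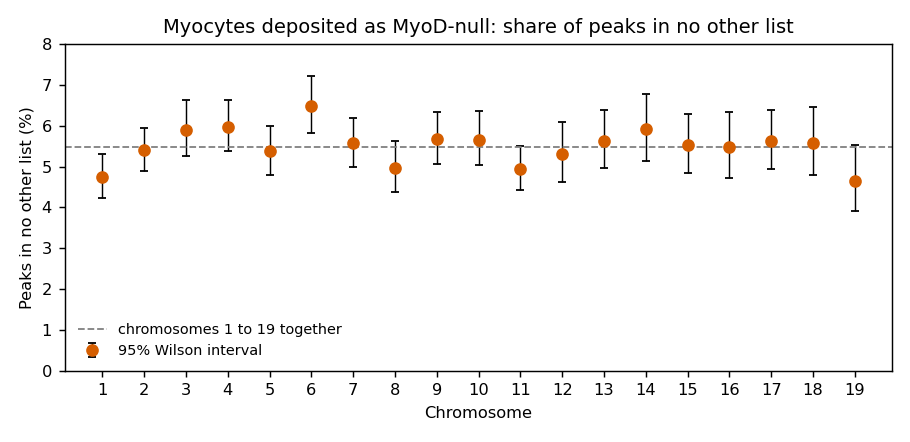
Percentage of the peaks of the defining myocytes that were found in no other list (vertical axis), for chromosomes 1 to 19, with 95% Wilson intervals. The dashed line is the overall 5.49%. Only the intervals of chromosomes 1 and 6 leave it out.

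Local clusters were few and small. In windows of 100 kb, 3151 windows held 1 selected region, 581 held 2, 111 held 3, 22 held 4 and 3 held 5, so that 33.6% of the regions shared a window with another. The comparable share was 29.2% for the 5236 regions found only in wild-type myoblasts and 44.5% for the 7690 found only in MyoD-null myoblasts. For the 22506 found only in the other myocytes it was 77.3%. The classes differ in number, and a larger class fills windows more often. Linked by gaps of at most 10 kb, the regions formed 245 pairs and 10 chains of 3, and the other 4229 stood alone.

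The window with the most regions and the highest summed fold was on chromosome 13 from 5700001 to 5800000. Of its 8 peaks in the defining myocytes, 5 were selected regions, with folds of 6.73, 3.95, 4.63, 3.27 and 3.41. Wild-type and MyoD-null myoblasts had 2 peaks each there and the other myocytes 4, of which 1 was found only in them. The strongest of the 5 was the ninth in overall rank. The 3 in the middle formed a chain of 14.0 kb without a peak of any other list inside its span.

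The second window, on chromosome 8 from 35800001 to 35900000, held 15 peaks of these myocytes, 6 of the other myocytes and 8 of each myoblast group. Its 5 selected regions had folds of 5.05, 3.23, 3.82, 3.27 and 1.86. The last of them had 66 reads over a local background of 34.9, and the second had 54 reads over 16.02. Only those with folds of 3.82 and 3.27 were at the genome-wide background. In this window a high background was thus part of the picture at 2 of the 5 regions, and its part in their listing was not tested.

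The third, on chromosome 7 from 150200001 to 150300000, was densely listed in all groups, with 17 peaks of these myocytes, 19 of the other myocytes, and 12 and 14 of wild-type and MyoD-null myoblasts. Its 5 selected regions had folds from 2.22 to 4.30, and 3 of them lay within 1 kb of another list's peak, the closest at 42 bp. This window also held 6 regions found only in the other myocytes. It differed from the first window, where no selected region lay that close to another list.

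**Figure D5:**
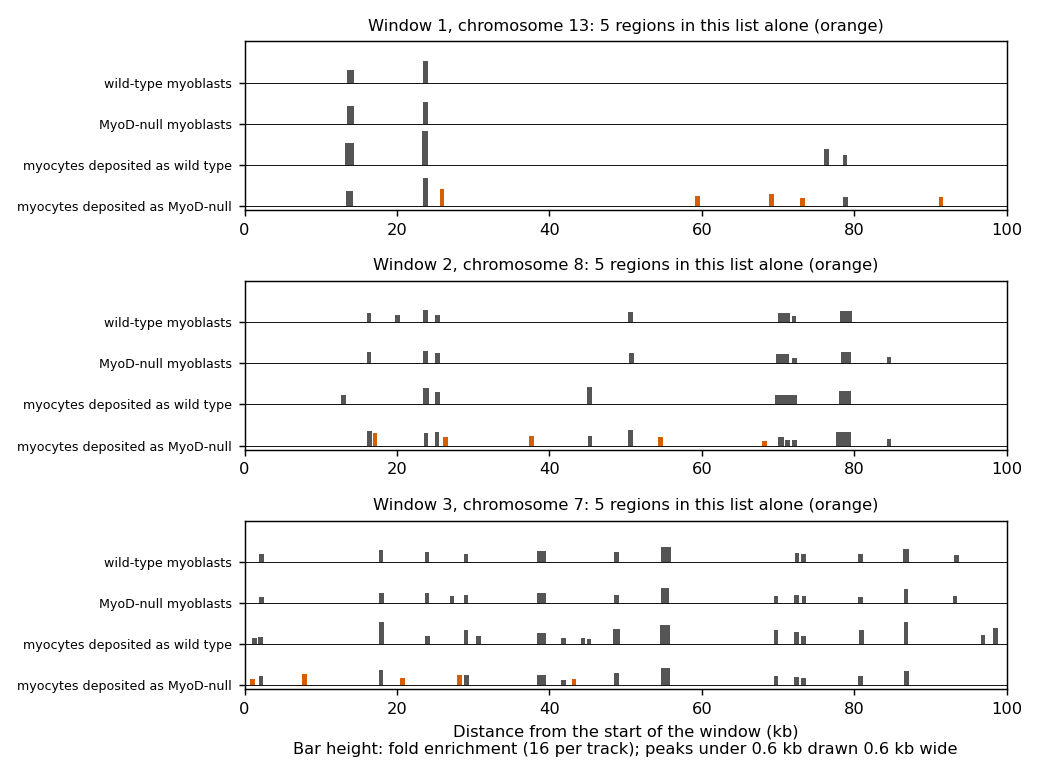
Peaks of the 4 lists in the 3 windows of 100 kb with 5 selected regions each, by distance in kb from the start of the window. Bar height is fold enrichment on a common scale (16 per track), and regions found only in the defining myocytes are orange. In the first window 4 of the 5 orange bars stand more than 2 kb from any grey bar of the other lists, while in the third 3 stand within 1 kb of one.

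The 2 further windows held 4 selected regions each, with the highest summed folds among windows of 4. On chromosome 6 from 114500001 to 114600000 all 4 were at the genome-wide background, with folds of 3.68, 4.63, 5.72 and 5.04 and 26, 33, 41 and 36 reads. These were 4 of 8 peaks in that list, against 2 in the other myocytes, 4 in wild-type myoblasts and 1 in MyoD-null ones. On chromosome 9 from 79400001 to 79500000 the folds were 3.00, 6.68, 3.95 and 3.27. The last 3 of these formed the strongest chain, from 79480773 to 79487632, which spanned 6.86 kb and contained no peak of another list. The remaining named chain, on chromosome 12 from 35748482 to 35758722, had folds of 3.76, 4.85 and 3.00, with 3 peaks of the other myocytes and 1 of MyoD-null myoblasts between its members.

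The selection rule turned on single bases for few regions. Just inside it, a region on chromosome 2 from 126250779 to 126250980 (fold 3.54) and a region on chromosome 14 from 68508020 to 68508251 (fold 3.41) touched a peak of another list without sharing a base, and a region on chromosome 11 from 49080985 to 49081237 (fold 2.68) was 1 bp away from one. Just outside, a peak on chromosome 9 from 36845317 to 36845663 (fold 3.27) shared 2 bp with a peak of the other myocytes. Peaks on chromosome 16 from 22639670 to 22639928 (fold 2.89) and on chromosome 5 from 65429953 to 65430152 (fold 2.45) shared 4 bp. Altogether 86 selected regions, or 1.81%, lay within 100 bp of another list's peak, and 147 peaks were left out for a summed overlap of 100 bp or less.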

How the data were processed

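Peaks of 12 ATAC-seq samples were available as 1 deposited list per group of 3, in narrowPeak layout. Per the submitters' processing notes, MACS2 and deepTools were used with mm9, without versions. Per the peak names, reads were merged before calling and carry a MAPQ30 tag. How reads were aligned, shifted and passed to the peak caller is not given in the sources used here. The authors' fold enrichment is a ratio of summit pileup to local background. Values of −log10 p and −log10 q were taken as deposited, with a lowest −log10 q of 2.02, and the deposited score, about 10 times −log10 q, was not used.

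The members, named regions and comparisons were chosen with earlier results of these data known. Named regions were the 12 with the highest fold, the 5 windows of 100 kb with the most members, the 3 longest chains (gaps up to 10 kb), the 3 on each side of the overlap rule, and the weakest by q. The member with the lowest fold was named after its value was seen. Mitochondrial peaks (2 or 3 per list) were outside the rule, and repeats were not filtered. Reads over a summit are the whole number that returns the deposited fold and p-value, with the pileup and background each raised by 1 in the fold and a Poisson tail for p. The genome-wide background came from the spacing of the 12 most frequent folds. It was 6.34 reads per base in the list of the members, 8.18 in wild-type myoblasts, 8.54 in those without MyoD and 5.29 in the other myocytes. Read totals are unknown. Intervals are 95% Wilson intervals. With 1 list per group no test between groups was made. Positions are mm9 and count from 1. Planned gene lists and motifs were not run, since the gene and promoter tables at hand are of GRCm38. Scripts ran in Python 3.11.15 with pandas 2.3.3, numpy 2.4.6, statsmodels 0.14.6, scipy 1.17.1 and matplotlib 3.10.9. In tests on simulated data, 7 of 7 known quantities were recovered within 1 percent. Merging was tested on 20000 regions, distances on a small part of them, and read numbers on separately drawn values. Those draws did not reach the highest local backgrounds reported here.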

Additional observations from a re-analysis of the deposited data

How the results depend on the processing

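No paired analysis was possible because peaks were called on merged replicates, which also prevented leaving out single replicates. The values below are, in order, the number of regions, their share of the list (%), median fold, median width (bp), share within 1 kb of another list (%) and share within 10 kb of another such region (%), which were 4749, 5.49, 3.20, 273, 26.5 and 10.9. Lists of equal length (86575 peaks each) gave 8120, 9.38, 3.24, 285, 23.9 and 16.8. A reciprocal overlap of 50% gave 8107, 9.36, 3.24, 282, 56.9 and 18.2, since peaks that overlap less then count as absent. Summits more than 250 bp apart gave 6206, 7.17, 3.25, 294, 43.7 and 13.6. Merging peaks up to 500 bp apart gave 4067, 4.72, 3.27, 273, 14.6 and 9.88. A −log10 q of at least 5 in all lists gave 4519, 5.67, 3.43, 296, 24.1 and 10.4, and in the members' list alone 3382, 4.24, 3.41, 283, 25.8 and 8.28. Ignoring wild-type myoblasts gave 5965, 6.89, 3.27, 278, 24.8 and 13.2, ignoring MyoD-null myoblasts 5911, 6.83, 3.22, 276, 25.8 and 13.4, and ignoring the other myocytes 9815, 11.3, 3.27, 288, 22.8 and 20.2. The share near another list was 13.4% at 500 bp and 71.3% at 5 kb, and the share near another such region 5.69% at 5 kb and 35.0% at 50 kb. Of the 5 named windows, 3 overlapped the first 5 with windows of 50 kb and 1 with windows of 250 kb. The causes were not tested, apart from overlap rules and cuts that change the set by construction.

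With equal lengths, regions found in 1 list alone numbered 13815 in the other myocytes, 4979 in wild-type myoblasts and 5524 in MyoD-null ones, so the order of the selected class against both myoblast classes turned: as deposited it was the smallest of the 4, and with equal lengths the second largest. With a −log10 q of at least 5 in all lists it (4519) was above wild-type myoblasts (3779) and below MyoD-null myoblasts (7108) and the other myocytes (21226). Whether an absence reflects closed chromatin or a signal below the limit of a list was not tested, as described above.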

Other observations

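The X chromosome, which the selection rule leaves out, held 100 regions of the defining myocytes alone, or 6.08% (5.02 to 7.33) of the 1646 X peaks of that list. Their median fold was 3.41 and their median width 270 bp. The strongest, from 97440935 to 97441290, had a fold of 6.27. In the other lists the share of X peaks found in that list alone was 4.89% (3.95 to 6.04) in wild-type myoblasts, 2.99% (2.25 to 3.97) in MyoD-null myoblasts and 27.6% (25.8 to 29.5) in the other myocytes. The interval for the selected class held its autosomal share of 5.49%.

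The densest stretch on a larger scale, found after the values were seen, was on chromosome 6 from 114000001 to 115000000, with 16 selected regions among 83 peaks of the list and a highest fold of 5.72. The other myocytes had 93 peaks there, of which 24 were found only in them, and the myoblast lists had 2 and 5 regions of their own. Next came chromosome 7 from 119000001 to 120000000 with 14 selected regions and chromosome 4 from 149000001 to 150000000 with 12, beside 27 and 29 regions found only in the other myocytes. Over all autosomes the other myocytes had 22506 regions of their own against 4749 selected ones, so the selected class was relatively more frequent in these stretches, which were chosen for it.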
